A study of Sus scrofa with 9 samples.

Results

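Platelet-derived growth factors (PDGF) and vascular endothelial growth factors (VEGF) are related families of secreted dimeric ligands that act through receptor tyrosine kinases. The genes described here are the ligands PDGFA, PDGFC, PDGFD, VEGFA, VEGFC and VEGFD, the PDGF receptors PDGFRA and PDGFRB, and the VEGF receptor FLT1. They were chosen by symbol from a list of 10 genes. Of these, 9 have a row among the 19535 gene rows of the deposited table, and PDGFB was not analysed here. All 9 were among the 13662 genes that passed the filter on low counts.

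The libraries came from porcine valvular interstitial cells (PVICs), the fibroblast-like cells that fill the aortic valve leaflet. The cells were cultured from wild-type pigs aged 4 to 5 months after the endothelium had been scraped from the leaflets. Control cells (NC) were kept in DMEM for 3 days. Osteogenic induction medium (OIM), which drives calcium deposition in these cells, held 2 mmol/L phosphate, 50 µg/mL ascorbic acid and 1e-07 mol/L insulin. The third group (BFGF) received the OIM supplements together with 50 ng/mL basic fibroblast growth factor (bFGF), also for 3 days according to the labels. Each group had 3 libraries. The labels do not say whether these were separate animals or cultures, so the p-values measure the spread between these libraries, which may be technical.

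The ligands of both families share a cystine-knot fold. PDGF-A and PDGF-C signal mainly through the alpha receptor, whereas PDGF-D acts through the beta receptor. PDGF-C and PDGF-D are secreted in a latent form and bind their receptors only after a protease has removed an amino-terminal CUB domain. VEGF-A is the main angiogenic ligand and acts through KDR, and FLT1 binds VEGF-A, VEGF-B and placental growth factor with high affinity and low kinase activity. VEGF-C and VEGF-D are also processed from larger precursors and act on FLT4, the receptor of lymphatic endothelium, and on KDR. In mesenchymal cells such as fibroblasts the PDGF receptors are the typical receptors of the group, and VEGF receptors are typical of endothelium.

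Total gene counts ran from 46773376 to 48270827 in the BFGF libraries and from 57075793 to 67371523 in the other 6 libraries. Levels are given as CPM (counts of a gene per 1000000 counts of the library, after TMM scaling) or, where different genes are compared, as CPM per kilobase of exon. The interstitial and fibroblast markers (9 of 9 present, none at 0) summed to between 75700 and 84300 CPM in NC and OIM and to between 47400 and 48400 CPM in BFGF. The library OIM 2 was the highest of its group for PDGFRA, VEGFA and FLT1. Its median absolute log2 difference from the other OIM libraries over all genes tested was 0.110 and 0.111, against 0.0877 between OIM 1 and OIM 3, and NC libraries differed by 0.0872 to 0.111. Values without OIM 2 are given for PDGFA, PDGFRA, VEGFA, FLT1 and KDR.

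In OIM against NC, no member was called, where a call needed a log2 fold change of 0.5 or more in either direction and an adjusted p of 0.05 or less in edgeR's quasi-likelihood test. In this comparison 2.35% of all genes tested were called, 1.49% higher and 0.864% lower. DESeq2 also called 0 members. An unadjusted p under 0.05 was found for 3 members, beside 26.2% of all genes, and 2 passed on the adjusted p alone, beside 13.6%. In BFGF against OIM, PDGFC, VEGFC, VEGFD and FLT1 rose and PDGFD fell. The 5 called of 9 stand beside 36.2% of all genes called, 17.7% higher and 18.4% lower. VEGFD passed the filter on low counts only through the BFGF libraries, so that its call in the comparisons with BFGF followed from the filter and is given as a description, and without it 4 of 8 members were called. In BFGF against NC, 4 members were again higher, VEGFD among them, and 1 was lower, beside 39.0% of all genes called, 18.9% higher and 20.0% lower. The last 2 comparisons share the BFGF libraries. On the adjusted p alone, 8 and 9 members passed in them, beside 67.4% and 70.2% of all genes. The median log2 fold change of the members was -0.048, 0.13 and 0.18 in OIM against NC, BFGF against OIM and BFGF against NC, and that of all genes was -0.0019, -0.0029 and -0.016. The libraries of the groups did not overlap for 2, 8 and 9 members in the same order, beside 28.8%, 72.1% and 73.7% of all genes. Of the interstitial markers, 5 were called lower in BFGF against OIM and 2 higher, VIM (0.66 on the log2 scale) and POSTN (1.46), beside 18.4% and 17.7% of all genes, and LUM and THY1 were not called.

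**Figure D1:**
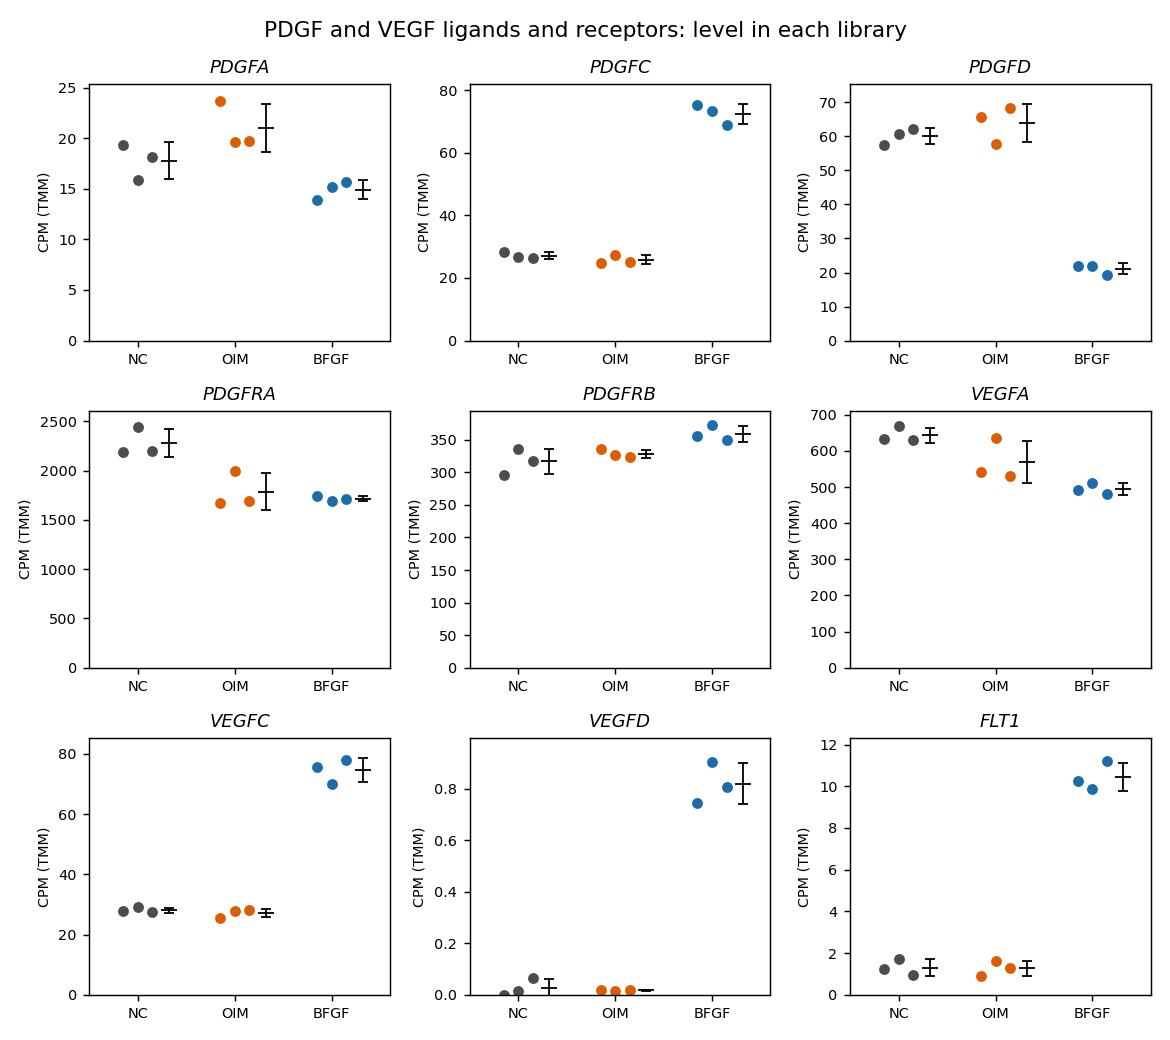
Level of each member in each library. The vertical axis of each panel is CPM after TMM scaling, dots are the 3 libraries of NC, OIM and BFGF, and the horizontal line and bar are the mean and SD. PDGFC, VEGFC, VEGFD and FLT1 stood higher and PDGFD lower in all 3 BFGF libraries than in any other library, and OIM 2 was above OIM 1 and OIM 3 for PDGFRA and VEGFA.

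Among the PDGF ligands, PDGFC and PDGFD moved in opposite directions with bFGF. PDGFC had 1544, 1609 and 1576 counts in the NC libraries, 1352, 1785 and 1432 in OIM and 4030, 3810 and 3575 in BFGF. Every BFGF library lay above every NC and OIM library although the BFGF libraries had the fewest counts in all. Its level was 27.1 ± 1.08 CPM in NC, 25.8 ± 1.38 CPM in OIM and 72.4 ± 3.27 CPM under bFGF (mean ± SD of 3 libraries each). PDGFC rose 2.80-fold in BFGF against OIM, a log2 fold change of 1.49 (SE 0.057, adjusted p = 9.16e-15, edgeR's quasi-likelihood test, Benjamini-Hochberg over all genes tested). NC and OIM libraries overlapped for this gene, with a log2 fold change of -0.069 (95% interval -0.19 to 0.052).

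PDGFD, whose product also needs cleavage before it binds, had 3141, 3684 and 3711 counts in NC, 3558, 3757 and 3903 in OIM and 1183, 1146 and 996 in BFGF. The BFGF libraries lay below all 6 others, and NC and OIM overlapped. The level was 60.2 ± 2.31 CPM in NC, 63.9 ± 5.54 CPM in OIM and 21.1 ± 1.66 CPM in BFGF. PDGFD fell 3.03-fold in BFGF against OIM (log2 fold change -1.60, SE 0.067, adjusted p = 4.17e-14, edgeR's quasi-likelihood test). The change against NC was -1.51 on the log2 scale, and that of OIM against NC was 0.085 (95% interval -0.047 to 0.22).

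PDGFA, the ligand of the alpha receptor that needs no extracellular activation, changed less. It had 1055, 959 and 1085 counts in NC, 1284, 1276 and 1125 in OIM and 744, 791 and 813 in BFGF. OIM libraries were the highest and BFGF libraries the lowest, with no overlap between the groups. Its log2 fold change in BFGF against OIM was -0.49 (SE 0.091, adjusted p = 8.09e-05, edgeR's quasi-likelihood test), just inside the fold limit, so that it was not called. It was called without OIM 2 (-0.52), OIM 3 (-0.54), BFGF 2 (-0.51) or BFGF 3 (-0.53). With libraries scaled by their totals alone the change was -0.27, or -0.49 relative to the median of all genes under that scaling. Its log2 fold change was 0.24 in OIM against NC, with an adjusted p of 0.0883 in the same test, and -0.25 in BFGF against NC.

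The composition of the PDGF ligand transcripts per exon length turned over accordingly. PDGFC made up 18.0% ± 0.760 of the summed level of the 3 ligands in NC and 16.1% ± 1.81 in OIM, but 54.1% ± 1.09 in BFGF (SD, n = 3). PDGFD made up 57.2% ± 2.49 in NC, 56.6% ± 2.58 in OIM and 22.5% ± 1.10 in BFGF. The share of PDGFA lay between 21.4% and 29.5% in all 9 libraries, with the union of its exons (2851 bases) as length and not its longest transcript (2007 bases). Within a library the ratio of PDGFC to PDGFD was 0.344, 0.306 and 0.297 in NC, 0.266, 0.333 and 0.257 in OIM and 2.38, 2.33 and 2.51 in BFGF. The groups BFGF and OIM did not overlap, and the log2 ratio differed by 3.09, or 8.50-fold. A two-sided exact permutation test gave p = 0.1, the smallest that 3 against 3 libraries allow, and 0.129 after Benjamini-Hochberg adjustment over the 9 ratio comparisons made.

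The promoters of PDGFC and PDGFD are shown because these ligands moved in opposite directions. Both are the 250 bases before the outermost annotated start in RefSeq's annotation of Sscrofa11.1, written 5′ to 3′ on the gene's strand, which is the minus strand for both. Capitals mark matches to the GC box GGGCGG in PDGFC and to the hypoxia response core ACGTG in PDGFD, on either strand. PDGFC lies on chromosome 8 from 45579065 to 45808789 and PDGFD on chromosome 9 from 34388636 to 34621227. The PDGFC window is chr8:45808790-45809039 and the PDGFD window is chr9:34621228-34621477.
PDGFC: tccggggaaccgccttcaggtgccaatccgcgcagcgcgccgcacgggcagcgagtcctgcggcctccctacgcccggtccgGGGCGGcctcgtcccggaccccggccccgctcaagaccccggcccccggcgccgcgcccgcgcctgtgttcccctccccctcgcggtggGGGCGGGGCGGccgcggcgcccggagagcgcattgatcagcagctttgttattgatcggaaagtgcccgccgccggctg
PDGFD: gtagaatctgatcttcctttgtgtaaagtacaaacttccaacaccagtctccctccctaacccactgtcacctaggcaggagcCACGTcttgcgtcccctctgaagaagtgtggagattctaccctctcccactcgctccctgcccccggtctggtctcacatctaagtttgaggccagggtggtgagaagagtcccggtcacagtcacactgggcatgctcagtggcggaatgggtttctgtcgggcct

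The PDGFC window held 76.8% G and C bases, above 91.7% of all promoters, with 3 GC boxes of which the last 2 share a base. The PDGFD window held 55.6% G and C, close to the median of 57.6% over 19525 promoters, with 1 hypoxia core and no GC box. At least 3 GC boxes were found in 16.7% of the 45980 annotated starts of all genes, and at least 1 hypoxia core in 18.7% of the 19525 promoters. These matches describe the letters only.

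The PDGF receptors were far more abundant than FLT1, and neither was called. PDGFRA, on chromosome 8 from 40966568 to 41021440, had 119480, 147909 and 131551 counts in NC, 90354, 130160 and 96873 in OIM and 93644, 88024 and 88786 in BFGF. In CPM these were 2192, 2440 and 2202 in NC, 1667, 1998 and 1696 in OIM and 1746, 1692 and 1708 in BFGF. All OIM and BFGF libraries lay below all NC libraries, and OIM and BFGF overlapped. The log2 fold change was -0.35 in OIM against NC (SE 0.054, adjusted p = 0.000146, edgeR's quasi-likelihood test) and -0.41 in BFGF against NC (adjusted p = 1.11e-06), both within the fold limit. Without OIM 2 the first was -0.44. In BFGF against OIM it was -0.059 (adjusted p = 0.343), 0.047 without OIM 2, and 0.16 when libraries were scaled by their totals alone. That scaling moved the median of all genes by 0.22, and PDGFRA was -0.057 relative to that median.

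PDGFRB, the receptor of pericytes and many fibroblasts, was higher in BFGF by a small amount. Its level was 317 ± 19.6 CPM in NC, 328 ± 6.51 CPM in OIM and 359 ± 11.8 CPM under bFGF (SD, n = 3). BFGF libraries ran from 349 to 372 CPM and OIM libraries from 323 to 336 CPM, without overlap. The log2 fold change in BFGF against OIM was 0.13 (SE 0.042, adjusted p = 0.0106, edgeR's quasi-likelihood test), which is within the fold limit. With libraries scaled by their totals alone it was 0.35, or 0.13 relative to the median of all genes under that scaling. In OIM against NC it was 0.051 (adjusted p = 0.481, same test), and those libraries overlapped. The pericyte and smooth muscle markers (9 of 9 present, none at 0) summed to between 9910 and 10400 CPM in NC, between 10100 and 13400 CPM in OIM and between 1900 and 2070 CPM in BFGF, where 7 were called lower and RGS5 higher against OIM, beside 18.4% and 17.7% of all genes. Their part in the receptor levels was not tested. In these bulk samples fewer cells of a type and less RNA per cell cannot be told apart.

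The ratio of PDGFRA to PDGFRB per exon length was 7.06, 6.94 and 6.61 in NC, 4.74, 5.85 and 5.01 in OIM and 4.69, 4.35 and 4.67 in BFGF. The 3 groups did not overlap. The log2 ratio differed by -0.41 between OIM and NC, and in BFGF it differed from OIM by -0.18, each with p = 0.1 in the exact permutation test and 0.129 after adjustment over the 9 comparisons. Without each library in turn the difference between BFGF and OIM ran from -0.25 to -0.095. PDGFRB accordingly made up 12.7% ± 0.379 of the summed PDGF receptor level in NC, 16.2% ± 1.45 in OIM and 18.0% ± 0.641 in BFGF.

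**Figure D2:**
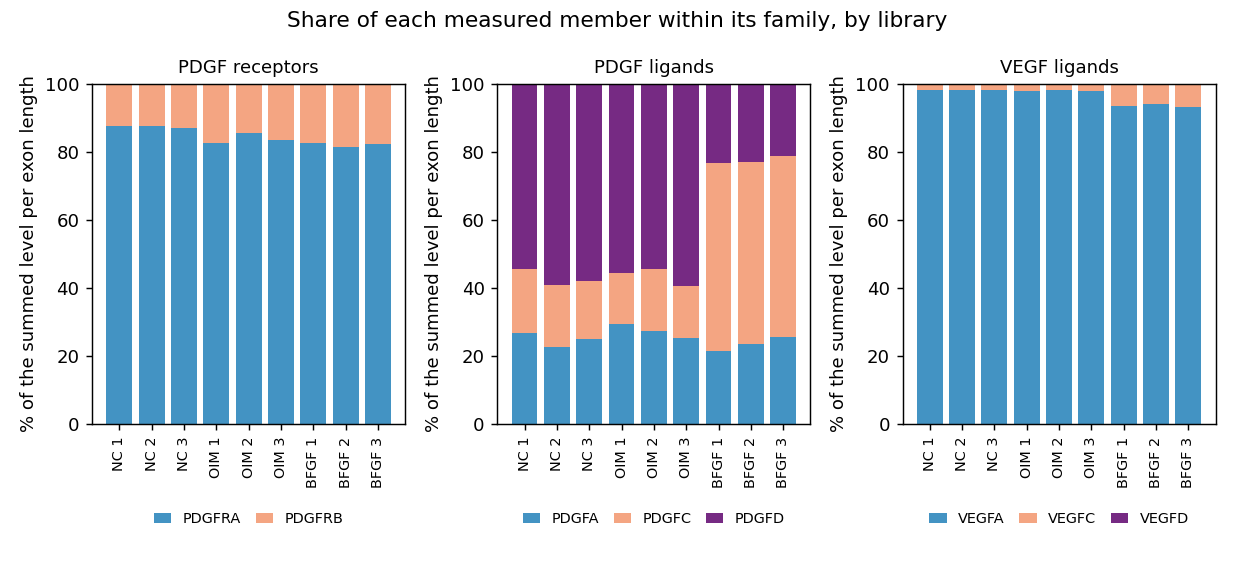
Share of each member in the summed level of the members of its family, by library. The vertical axes give percent of the summed CPM per kilobase of exon, and each bar is 1 library. PDGFC replaced PDGFD as the largest PDGF ligand share in the 3 BFGF libraries, while VEGFA made up 93.1% or more of the sum of VEGFA, VEGFC and VEGFD in all 9.

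VEGFA was the most abundant of the member ligands and was lower in the means of OIM and BFGF than in that of NC, without a call. Its counts were 34486, 40477 and 37669 in NC, 29289, 41393 and 30318 in OIM and 26401, 26660 and 24952 in BFGF. The level was 644 ± 20.9 CPM in NC, 569 ± 57.8 CPM in OIM and 495 ± 16.4 CPM in BFGF. BFGF libraries lay below all others, and OIM overlapped NC through OIM 2. The log2 fold change was -0.18 in OIM against NC (SE 0.052, adjusted p = 0.0258, edgeR's quasi-likelihood test), and -0.26 without OIM 2. Without OIM 3 it was -0.13, with an adjusted p of 0.123 in the same test. The adjusted p was also above 0.05 without OIM 1 and without any 1 of the NC libraries. In BFGF against OIM the log2 fold change was -0.20 (adjusted p = 0.00197), or -0.096 without OIM 2. In BFGF against NC it was -0.38 (adjusted p = 1.91e-06). Scaling by library totals alone shifted the median of all genes by 0.22 in BFGF against OIM and gave 0.019 for VEGFA, which was -0.20 relative to that median.

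VEGFC, the lymphatic ligand, rose with bFGF by nearly the same factor as PDGFC. It had 1510, 1758 and 1645 counts in NC, 1389, 1810 and 1604 in OIM and 4064, 3649 and 4045 in BFGF. The BFGF libraries lay above all others, and NC and OIM overlapped. The level rose from 27.2 ± 1.34 CPM in OIM to 74.6 ± 3.98 CPM in BFGF, or 2.74-fold (log2 fold change 1.46, SE 0.056, adjusted p = 9.87e-15, edgeR's quasi-likelihood test). OIM and NC differed by -0.048 on the log2 scale (95% interval -0.17 to 0.071). The ratio of VEGFA to VEGFC per exon length was 51.6, 52.0 and 51.7 in NC, 47.6, 51.6 and 42.7 in OIM and 14.7, 16.5 and 13.9 in BFGF. The log2 ratio differed by -1.65 between BFGF and OIM, 3.15-fold, with p = 0.1 in the exact permutation test and 0.129 after adjustment. The level of this ratio depends on the length given to VEGFC, and its group means of 51.7, 47.2 and 15.0 became 29.9, 27.3 and 8.67 with the longest transcript as length, a setting chosen for this value after the data were seen. VEGFA made up 98.1%, 97.9% and 93.5% of the sum of VEGFA, VEGFC and VEGFD in NC, OIM and BFGF. With VEGFB and PGF, which are ligands of FLT1, added to the sum after the data were seen, its share was 82.2%, 81.4% and 74.5%.

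VEGFD, the other lymphatic ligand, was near 0 outside the BFGF group. It had 0, 1 and 4 counts in NC, 1, 1 and 1 in OIM and 40, 47 and 42 in BFGF. The sum over BFGF libraries was 129 counts against 3 in OIM, a ratio of 48.1 per scaled count with a 95% counting interval of 16.1 to 236, and 28.6 against the 5 counts of NC (interval 12.0 to 89.6). Such intervals cover counting error only. NC 3 held 4 of the 5 NC counts, and the fitted log2 fold change of 4.74 in BFGF against NC was 6.24 without NC 3 and 4.23 without NC 1. Since it passed the filter only through the BFGF libraries, no p is given. At 0.819 ± 0.0794 CPM it was still the lowest member in BFGF, and the 3 and 5 counts of OIM and NC cannot order those groups.

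FLT1, a decoy-like receptor that binds VEGF-A without strong signalling, was the only receptor among the members that was called. It had 68, 105 and 57 counts in NC, 50, 107 and 73 in OIM and 550, 514 and 583 in BFGF. The BFGF libraries stood far above the others, which overlapped among themselves. The level was 1.31 ± 0.393 CPM in NC, 1.28 ± 0.360 CPM in OIM and 10.4 ± 0.689 CPM in BFGF. FLT1 rose 8.08-fold in BFGF against OIM (log2 fold change 3.01, SE 0.20, adjusted p = 4.56e-11, edgeR's quasi-likelihood test), and by 3.26 on the log2 scale without OIM 2. Against NC the log2 fold change was 2.99.

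FLT1 and KDR are typical of endothelium, so the endothelial markers are given beside them. Of 10 markers listed, 9 were in the table and none was at 0. Their summed level was 73.2 to 75.7 CPM in NC, 87.7 to 89.2 CPM in OIM and 169 to 179 CPM in BFGF, and 6 of the 9 were called higher in BFGF against OIM, beside 17.7% of all genes. Of these, CLDN5 passed the filter on low counts only through the BFGF libraries, so that its call followed from the filter. This leaves PECAM1, CDH5, TEK, EMCN and ERG as called higher. Most of the sum was ERG, an ETS-family transcription factor, at 51.5, 66.8 and 137 CPM in the mean of NC, OIM and BFGF. PECAM1, an adhesion molecule of endothelium and blood cells, had means of 12.8, 11.8 and 20.7 CPM. CDH5, the cadherin of endothelial junctions, had means of 5.89, 5.80 and 8.24 CPM, and VWF, von Willebrand factor, 0.479, 0.303 and 0.228 CPM. Leukocyte markers (8 of 8 in the table, CD3E at 0) summed to at most 16.4 CPM in any library. The part of these markers in the FLT1 level was not tested.

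The promoters of FLT1 and VEGFD are shown as those of the members with the largest folds. FLT1 lies on chromosome 11 from 5620698 to 5797095 and VEGFD on chromosome X from 11893254 to 11933923, both on the minus strand. Both windows lie before the outermost annotated start, as for the other members. The FLT1 window is chr11:5797096-5797345. The VEGFD window is chrX:11933924-11934173. Capitals mark the hypoxia core in both, on either strand.
FLT1: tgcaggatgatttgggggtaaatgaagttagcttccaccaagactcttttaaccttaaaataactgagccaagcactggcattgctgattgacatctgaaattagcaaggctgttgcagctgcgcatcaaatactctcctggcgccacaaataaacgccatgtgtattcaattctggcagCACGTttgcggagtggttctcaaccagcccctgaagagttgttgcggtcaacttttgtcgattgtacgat
VEGFD: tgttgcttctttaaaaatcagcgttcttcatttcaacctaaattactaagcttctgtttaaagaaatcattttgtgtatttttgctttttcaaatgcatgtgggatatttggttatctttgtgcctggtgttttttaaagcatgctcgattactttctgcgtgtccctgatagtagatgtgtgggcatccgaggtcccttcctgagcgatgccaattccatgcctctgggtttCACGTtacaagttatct

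The FLT1 window held 45.6% G and C, above 19.1% of all promoters, with 1 hypoxia core and no GC box. A window before a start annotated further inside FLT1 held 74.4% G and C and 3 GC boxes, and 22.5% of all genes had at least 3 GC boxes at any annotated start. The VEGFD window held 38.8% G and C, above 8.73% of all promoters, and its first 17 bases lie in the last exon of PIR, a gene on the same strand whose annotated end is 233 bases upstream of VEGFD. PIR, which encodes the nuclear iron-binding protein pirin, fell in BFGF against OIM (log2 fold change -0.72, SE 0.15, adjusted p = 0.000242, edgeR's quasi-likelihood test), opposite in direction to VEGFD. Its counts were 358, 326 and 365 in OIM and 192, 220 and 159 in BFGF. Of the other members, PDGFRB held 2 AP-1 motifs (TGANTCA) and 1 GC box, PDGFRA held 1 AP-1 motif and PDGFA 1 GC box. AP-1 motifs were found in 5.25% of promoters, GC boxes in 45.9% and the ETS motif CCGGAA in 13.6%, the last in none of the 9 member windows.

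Per exon length the order in NC and OIM was PDGFRA, VEGFA, PDGFRB, PDGFD, PDGFA, PDGFC, VEGFC, FLT1 and VEGFD, from high to low. No neighbours in this order overlapped in their libraries. PDGFC exceeded VEGFC 1.17-fold in NC and 1.15-fold in OIM, but the order of this pair turned in all 3 groups with the longest transcript as length, to 5.00 against 7.01 CPM per kilobase in NC. PDGFRA stood at 360, 282 and 271 CPM per kilobase in the mean of NC, OIM and BFGF, above 99.0%, 98.8% and 99.0% of all genes tested. VEGFA stood at 201, 178 and 155 and PDGFRB at 52.4, 54.3 and 59.4 CPM per kilobase. In BFGF, PDGFC and VEGFC took the fourth and the fifth place (in the opposite order with the longest transcript), at 12.1 ± 0.547 and 10.3 ± 0.550 CPM per kilobase. PDGFA and PDGFD followed at 5.23 ± 0.323 and 5.04 ± 0.398 CPM per kilobase, and their libraries overlapped. This overlap depends on the length given to PDGFA, which was 2851 bases as the union of exons and 2007 as the longest transcript. PDGFD had 4181 bases in both. FLT1 reached 1.32 CPM per kilobase and VEGFD 0.373.

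**Figure D3:**
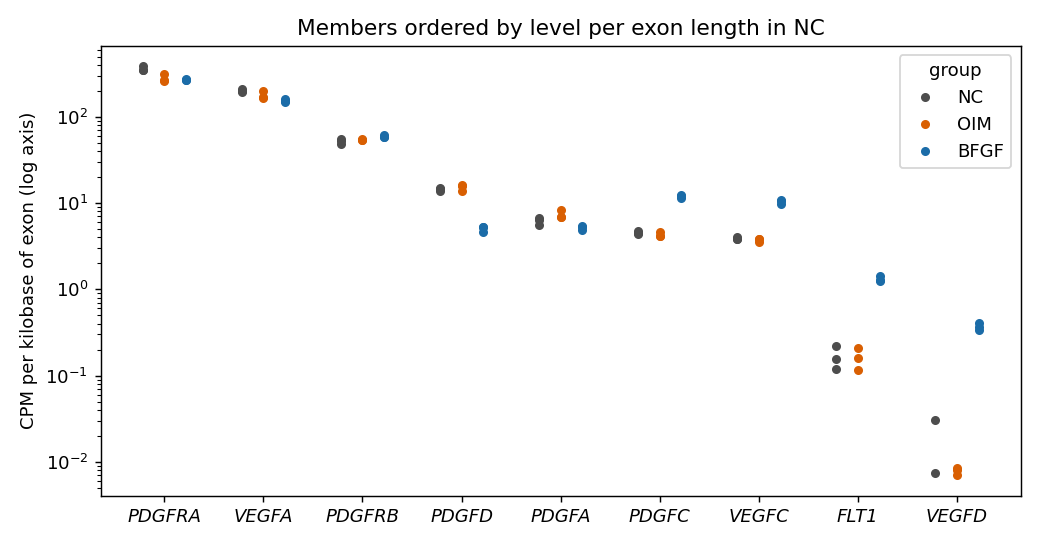
Members ordered by their level in NC. The vertical log axis is CPM per kilobase of exon, and each dot is 1 library of NC, OIM or BFGF, with the NC library that had 0 counts of VEGFD left out because a log axis has no 0. PDGFRA, VEGFA and PDGFRB kept the first places in every group, and the BFGF dots of PDGFC and VEGFC lie above that of PDGFD.

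**Figure D4:**
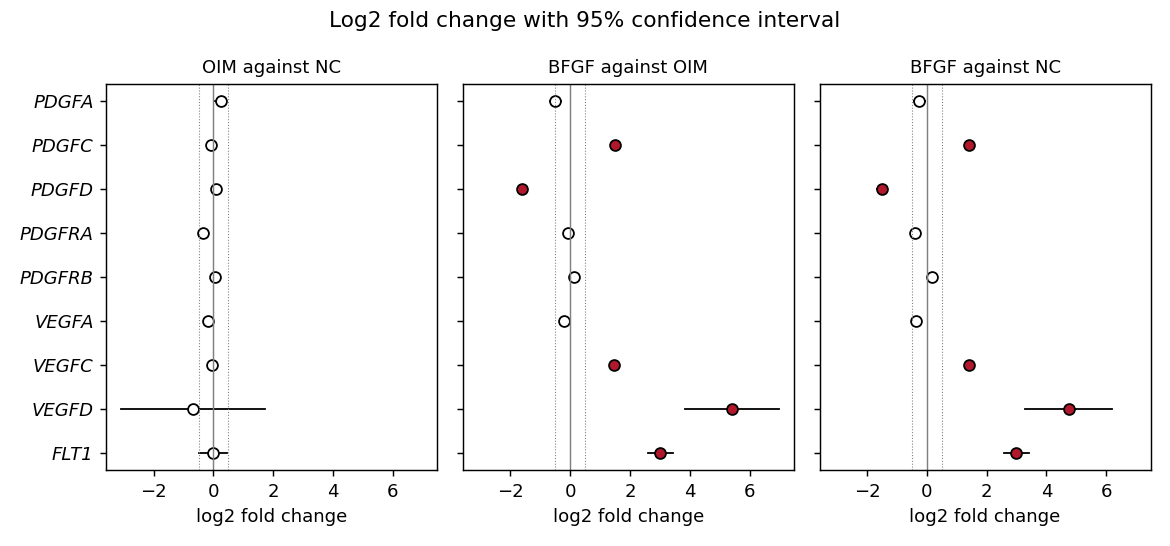
Log2 fold change of each member in the 3 comparisons. Dots are fitted values with their 95% interval, filled where the gene was called, and dotted lines stand at the fold limit of 0.5 in each direction. In OIM against NC no dot is filled, and in both comparisons with BFGF the filled dots are PDGFC, VEGFC, VEGFD and FLT1 on the higher side and PDGFD on the lower side. The fitted value of VEGFD rests on 3 and 5 counts in OIM and NC and depends on how low counts are moderated.

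The genes whose log2 CPM was most like each member over the 9 libraries mostly shared its step between BFGF and the other groups. For PDGFC these were LOC110261663 (Pearson r = 0.999) and HNMT, which inactivates histamine (0.998). For PDGFD they were PRICKLE2, a planar polarity gene, and LIN7A, a scaffold protein, both at 0.999. For VEGFC they were HYAL2, a hyaluronidase, and the kinase gene LRRK2, both at 0.998, and for FLT1 PLCH1, a phospholipase C (0.997), and PHF5A, a splicing factor (0.996). VEGFD was followed by GCLC, of glutathione synthesis, at 0.995 and by TIRAP, a Toll-like receptor adaptor, at 0.994. The members without a call had looser neighbours. These were TRPS1 (0.979) and ABCD3 (0.974) for PDGFRA, DAB2IP (0.978) and OPCML (0.974) for PDGFRB, RP2 and TOB1 (both 0.965) for VEGFA, and BORCS8 (0.956) and UNC13C (0.952) for PDGFA. These correlations are over 9 libraries that fall into treatment groups, and are given as a description.

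Among the family genes outside the members, 2 of 8 rose and 3 fell in BFGF against OIM, where 17.7% of all genes were called higher and 18.4% lower. Of the 2 that rose, KDR passed the filter on low counts only through the BFGF libraries, so that its call followed from the filter. This leaves PGF as the only gene of the list called higher. None of the 8 was called in OIM against NC, where 2.35% of all genes were. PGF, placental growth factor and a ligand of FLT1, had 156, 213 and 143 counts in OIM and 1209, 990 and 1132 in BFGF, with no overlap. It rose by 2.87 on the log2 scale (SE 0.12, adjusted p = 4.29e-14, edgeR's quasi-likelihood test). KDR, the main signalling receptor of VEGF-A, had 2, 6 and 2 counts in NC, 0, 24 and 8 in OIM and 57, 52 and 76 in BFGF. The OIM libraries were widely spread, and the difference of 2.73 on the log2 scale between BFGF and OIM became 4.02 without OIM 2 and 2.18 without OIM 1. KDR passed the filter on low counts only through the BFGF libraries, so no p is given. At 0.193 CPM per kilobase in BFGF, it remained below FLT1.

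The co-receptors differed from each other. NRP2, a neuropilin that binds VEGF-C, had 15837, 15666 and 16844 counts in OIM and 4510, 4586 and 4086 in BFGF and fell by 1.72 on the log2 scale (adjusted p = 2.90e-15, edgeR's quasi-likelihood test). NRP1, the neuropilin that binds VEGF-A, had a log2 fold change of -0.18 (adjusted p = 0.00172) and was not called. PDGFRL, a secreted PDGF receptor-like protein, fell by 1.57. The third gene that fell, LRP1, an endocytic receptor that associates with PDGFRB, was named after its values were seen. It fell by 0.90 on the log2 scale, from 5040 to 2692 CPM in the group means. FLT4, the receptor of VEGF-C and VEGF-D, had 11 to 26 counts in OIM and 12 to 34 in BFGF and was not called.

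The proteases and cofactors that activate these ligands were called higher in 4 and lower in 1 of 8 tested genes in BFGF against OIM, beside 17.7% and 18.4% of all genes. In OIM against NC none of the 8 was called, beside 2.35% of all genes. PLAT, tissue plasminogen activator, which cleaves latent PDGF-C, had 3300, 4249 and 3185 counts in OIM and 16027, 16907 and 16598 in BFGF. It rose by 2.37 on the log2 scale (SE 0.054, adjusted p = 4.69e-18, edgeR's quasi-likelihood test). CCBE1 and ADAMTS3, the cofactor and the protease that mature VEGF-C, rose by 1.47 and 0.73, and FURIN, a proprotein convertase, rose by 0.84. PCSK5, another convertase, was the gene called lower, at -0.71. PLAU, another plasminogen activator, was not called (0.44), and ST14 and PLG of the list were not tested. The median log2 fold change of the list was 0.59, beside -0.0029 over all genes.

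Among 25 adaptors and enzymes that couple the receptors to the cell, 2 rose and 4 fell in BFGF against OIM and 19 were not called, with a median of -0.19. Of all genes 36.2% were called in this comparison. PIK3R1, the regulatory subunit of phosphoinositide 3-kinase that docks on PDGF receptors, had 22944, 27258 and 24803 counts in OIM and 7196, 6841 and 7062 in BFGF and fell by 1.67. CBLB, a ubiquitin ligase that ends receptor signalling, fell by 1.21 and the docking protein gene GAB1 by 1.07. SHB, an adaptor of several tyrosine kinase receptors, rose by 0.98. None of the 25 was called in OIM against NC, beside 2.35% of all genes.

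Growth-factor early response genes went both ways, with 7 of 18 higher and 5 lower in BFGF against OIM, beside 17.7% and 18.4% of all genes, and a median of -0.054. EGR2 and FOSL1, transcription factors induced by growth factors, rose by 2.03 and 1.74 on the log2 scale. NR4A3, an orphan nuclear receptor, and FOSB fell by 2.68 and 2.55. In OIM against NC, 2 of the 18 were higher, NR4A3 (0.54) and CCND1 (0.57), beside 1.49% of all genes, and without OIM 2 only NR4A3 was called in this list.

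The hypoxia list, which holds regulators and targets of the pathway to which VEGFA also responds, went 1 way. In BFGF against OIM none of 21 tested genes rose and 17 fell, beside 17.7% and 18.4% of all genes, with a median of -1.34. ANKRD37 had 358, 483 and 401 counts in OIM and 25, 23 and 10 in BFGF and fell by 4.25 on the log2 scale (SE 0.20, adjusted p = 2.54e-13, edgeR's quasi-likelihood test). BNIP3, a mitophagy receptor, fell by 3.43, the oxygen sensor EGLN3 by 3.18 and PDK1, which inhibits pyruvate dehydrogenase, by 2.98. These were named for having the largest changes of the list. The genes not called were ARNT, VHL, HIF1AN and CA9, at -0.34, -0.21, 0.051 and -0.67. VEGFA was at -0.20 in the same comparison. Of the list 2 were lower in OIM against NC, EGLN3 (-0.75) and CA12 (-0.80), beside 0.864% of all genes.

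Of 22 other regulators of angiogenesis, 11 rose and 5 fell in BFGF against OIM, beside 17.7% and 18.4% of all genes, with a median of 0.34. SEMA3A, a neuropilin ligand that competes with VEGF-A, had 144, 283 and 129 counts in OIM and 4090, 3762 and 3714 in BFGF and rose by 4.55 on the log2 scale (SE 0.14, adjusted p = 2.11e-16, edgeR's quasi-likelihood test). ANGPT2, a ligand of the endothelial receptor TEK, had 0, 9 and 8 counts in OIM and 116, 96 and 124 in BFGF and rose by 4.45. Like KDR, it passed the filter only through the BFGF libraries, so that its call among the 11 followed from the filter and is given as a description. ESM1, a secreted proteoglycan, rose by 4.35, and THBS2, an inhibitor of angiogenesis, fell by 3.73. In OIM against NC, EFNB2 was higher (1.02) and ANGPTL4 lower (-0.59), beside 1.49% and 0.864% of all genes, and without OIM 2 the list held 4 calls.

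**Figure D5:**
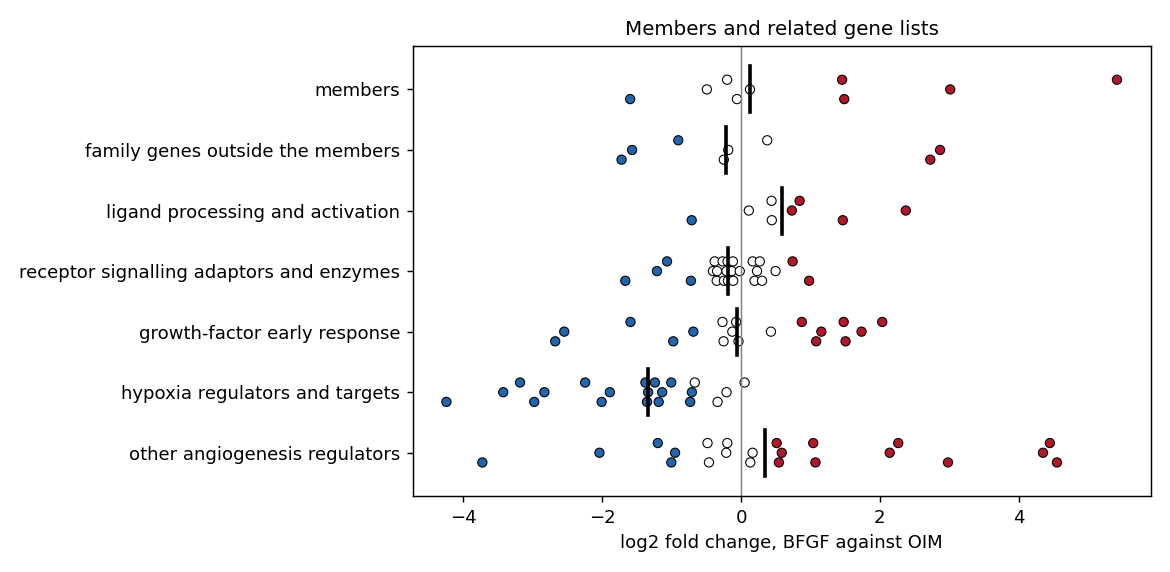
Log2 fold change in BFGF against OIM of the members and of the genes of the related lists. Each dot is 1 gene, filled red where called higher, filled blue where called lower and open where not called, and the vertical black bar is the median of the list. The hypoxia list has its median at -1.34 with no filled dot on the higher side, and the members have 4 filled dots on the higher side and 1 on the lower side.

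Non-coding and circular transcripts found at the member loci were few. Of 9888 non-coding rows, 9014 could be placed by the annotation, and any of the others at these loci would be missed. A long non-coding RNA, LOC106504420, ends 24 bases before the annotated start of VEGFA on the same strand of chromosome 7. Its estimated counts were 736, 881 and 822 in NC, 694, 926 and 667 in OIM and 612, 596 and 588 in BFGF. Its log2 fold change in BFGF against OIM was -0.18 (adjusted p = 0.429, edgeR's quasi-likelihood test over 2253 non-coding transcripts), so that no call was made. Circular RNAs with both ends inside a member were listed 10 times at PDGFRA, 9 of them on its strand, with 53, 15 and 9 counts in all of NC, OIM and BFGF, and once each at VEGFC and PDGFA. Of those at PDGFRA, 7 were counted in 1 library only, and no test was made at this depth, where all circular RNAs together had 6048 to 10029 counts per library. DDI1, a gene on the opposite strand within PDGFD, had 0 counts in all 9 libraries.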

How the data were processed

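The authors deposited estimated counts per gene and library, made from aligned reads and not normalized. Values of gene rows were whole numbers, and 44.6% of the values of non-coding transcripts were not, so that these were rounded. The paper states trimming with Cutadapt and alignment with STAR, whereas the submitters' processing notes list Trimmomatic, HISAT2 and StringTie with Sscrofa11.1. The counting program and its strand setting are not given in the sources used here. The labels name a stranded kit with ribosomal RNA depletion, and the paper a poly-A kit and a shorter treatment before RNA extraction. A further 19 blank columns were not used.

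Genes were filtered with filterByExpr (minimum count 10), scaled with TMM and tested with edgeR 4.0.16 (R 4.3.3) in a fit of all 9 libraries, with Benjamini-Hochberg adjustment over 13662 genes. Calls required both an adjusted p no larger than 0.05 and a log2 change of 0.5 or more in size. Ratios within a library were compared by exact permutation tests (SciPy 1.17.1). DESeq2 1.42.0, other scalings, filters and fold limits, a replicate block, fits of only the groups compared and fits without each library were alternatives. The code was tested on simulated data. Exon lengths, positions and promoters came from RefSeq's annotation of Sscrofa11.1, in which 19510 of 19535 gene rows had their symbol. Lengths were the union of exons, with the longest transcript as an alternative. Depth was 46773376 to 67371523 counts per library. Intervals of log2 fold changes come from the edgeR fit, and those of the VEGFD ratios cover counting error only.

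The members and lists were chosen with earlier results of these data known. Named were all members, from each list up to 4 called genes with the largest absolute change, KDR, NRP1 and NRP2 in any case, and the 2 genes most correlated with each member. Genes outside this rule (LRP1, PCSK5, PLAU, ST14, PLG, FLT4, CCND1, CA12, ARNT, VHL, HIF1AN, CA9, EFNB2, ANGPTL4, PIR, DDI1, LOC106504420 and the markers) were named after their values were seen.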

Additional observations from a re-analysis of the deposited data

How the results depend on the processing

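The number of members called was 0, 5 and 5 in OIM against NC, BFGF against OIM and BFGF against NC with DESeq2, with a replicate block and in the other fits but for those named here. It was 2, 8 and 9 with no limit on the fold change, beside 13.6%, 67.4% and 70.2% of all genes. Without each library in turn it ranged from 0 to 0, 5 to 6 and 5 to 5. No sign of a pairing by replicate number was seen. Deviations of same-numbered libraries correlated at -0.032 to 0.0035 and those of other pairs at -0.026 to 0.0534. Whether same-numbered libraries shared an animal, culture or day cannot be told from these values. The block gave 0, 5 and 5 calls and changed no call of a member. With library totals alone, PDGFRA had 0.16 and VEGFA 0.019 in BFGF against OIM, each reversed in sign, while the median of all genes moved by 0.22. Relative to that median they were -0.057 and -0.20. Leaving out libraries reversed the sign of uncalled changes, which ranged from -1.19 to 0.82 for VEGFD and from -0.25 to 0.24 for FLT1 in OIM against NC, and from -0.11 to 0.047 for PDGFRA in BFGF against OIM. With the longest transcript as length, 1 pair of members, PDGFC and VEGFC, changed order in level, in all 3 groups. The ratio differences without each library ranged from -0.49 to -0.34, -0.25 to -0.095 and -0.62 to -0.55 for PDGFRA to PDGFRB, from -0.27 to -0.083, 3.02 to 3.20 and 2.89 to 3.00 for PDGFC to PDGFD, and from -0.20 to -0.062, -1.73 to -1.59 and -1.86 to -1.73 for VEGFA to VEGFC, in the same order of comparisons. The cause of these changes was not tested. Apart from the limit on the fold change, PDGFA in BFGF against OIM was the only member that gained a call, in 4 fits without 1 library, and no member lost its call in the alternatives run. With 3 libraries a group, counts of VEGFD in NC and OIM were too low to order these groups.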
